A study of Mus musculus with 6 samples.

Results

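The Toll-like receptor genes Tlr1, Tlr2, Tlr3, Tlr4, Tlr6, Tlr7, Tlr8, Tlr9 and Tlr13, with the co-receptor gene Cd14, were read in 6 RNA-seq libraries of cultured mouse bone marrow cells. The 10 genes were taken by symbol from the 55487 genes of the deposited table, and each symbol matched 1 gene. All 10 were among the 18766 genes that averaged 3 or more and were tested. The libraries came from cKit+ bone marrow cells that received a lentivirus overexpressing MLLT3, either wild type (WT, n = 3) or a mutant carrying K63E K67E (DM, n = 3). After sorting, both groups spent 8 days in methylcellulose. The medium held 10 ng/mL of Flt3L, 20 ng/mL each of other cytokines, among them EPO, SCF, GM-CSF, IL-3, IL-6 and IL-11, gentamycin, and 200 nM of 4-hydroxytamoxifen, which was added to delete endogenous Mllt3 in both. No group kept the endogenous gene by design, so WT means cells with vector-supplied wild type protein. The labels read here give no strain, age, sex or Cre driver, and they do not say whether replicates came from separate animals or cultures, so p-values measure the spread between these libraries, which may be technical.

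Toll-like receptors are membrane proteins of macrophages, dendritic cells, neutrophils and other cells that bind conserved molecules of microbes. One group sits at the cell surface and binds bacterial lipids and proteins, and another sits in endosomes and binds nucleic acids. Ligand binding recruits the adaptors MyD88 or TRIF (gene Ticam1), which lead through IRAK, TRAF and TBK1 or IKK kinases to NF-kB and IRF transcription factors and to cytokine genes. In bone marrow the receptors are carried mainly by myeloid cells, and some are found on stem and progenitor cells.

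The deposited unit is the regularized log, or rlog, which is on the log2 scale, normalized for library size and pulled toward each gene's mean, so changes of low genes are understated. The values hold no counts, and the depth of the libraries is unknown. The library medians over the tested genes lay between 8.03 and 8.11. Mllt3, the targeted gene, had WT values of 12.87, 12.6 and 12.44 against DM values of 12.44, 12.03 and 11.99, and the table does not separate vector from endogenous transcripts. Its change was -0.48 (limma adjusted p 0.0448), which was called lower in DM, though the groups overlapped. The mutation and the level of Mllt3 RNA thus differ together, and the part of that level in the other changes was not tested. In the cells as harvested, Kit read between 14.29 and 14.9 and Cd34 between 12.02 and 12.64 over the 6 libraries, and their groups overlapped.

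Of the 10 genes, 8 were higher in DM and none was lower at an adjusted p under 0.05 (limma, Benjamini-Hochberg over all genes tested). Over all 18766 tested genes, 13.9% were called, 9.2% higher and 4.71% lower. The calls over all genes were 66.1% higher ones, and 51.3% after quantile normalization. At an unadjusted p under 0.05, which 28.9% of all genes passed in limma, 8 members were higher and 0 lower. The 8 that rose were Tlr2, Tlr3, Tlr4, Tlr6, Tlr7, Tlr8, Tlr13 and Cd14, by 0.4 to 0.79 on the log2 scale, and Tlr1 and Tlr9 did not pass the test. The median change of the 10 genes was 0.56, against 0.01 over all tested genes. In the same 8 genes every DM library lay above every WT library, a pattern found in 21.5% of the tested genes, and 35.8% had no overlap in either direction. The calls of Tlr2, Tlr7, Tlr13 and Cd14 were kept in each of the 6 fits that left out 1 library, while 4 members were called without DM replicate 2 and 5 without WT replicate 1. As the RNA came from bulk cultures, more cells of a type and more RNA per cell in DM cannot be told apart.

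**Figure D1:**
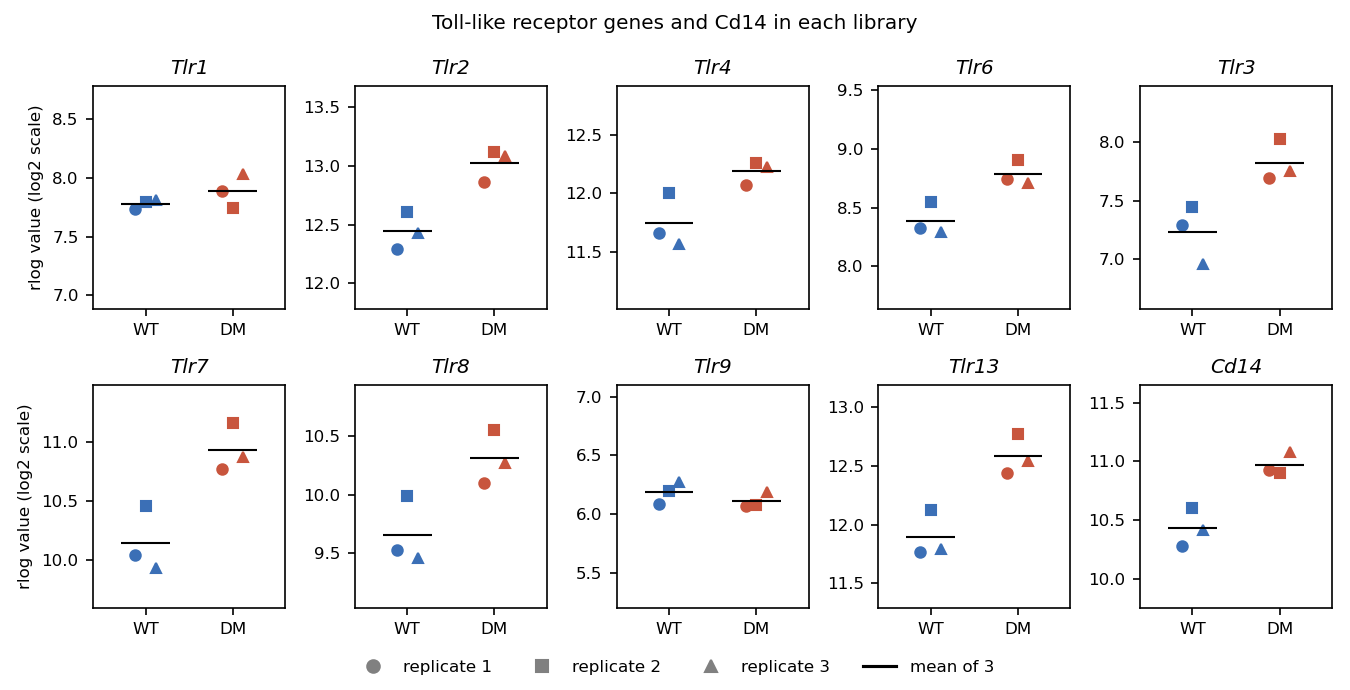
The rlog value (y axis, log2 scale, each panel spanning the same range) of each gene in the WT (blue) and DM (red) libraries, with symbols for replicate numbers and lines for means of 3. The red points lie above all blue points in 8 panels and overlap them in those of Tlr1 and Tlr9.

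The surface receptors were led by Tlr2. Tlr2 (ENSMUSG00000027995.10; chromosome 3, 83836272 to 83841767, minus strand) encodes the receptor for bacterial lipoproteins, which pairs with TLR1 or TLR6. All gene coordinates are from GENCODE M21 on GRCm38, the assembly also called mm10. With replicates in numerical order, here and for the genes that follow, Tlr2 had WT values of 12.29, 12.61 and 12.43 and DM values of 12.86, 13.12 and 13.09. The lowest DM library was 0.255 above the highest WT library. The mean went from 12.44 ± 0.159 (SD, n = 3) to 13.02 ± 0.139, a change of 0.58 (SE 0.101, limma adjusted p 0.00723), or 1.49-fold on the linear scale of these shrunken values. The sequence just upstream of Tlr2 is shown because it holds a match to the NF-kB motif, searched as GGG and CC with any 5 bases between them, whose factors act downstream of these receptors. It is chr3:83841768-83841858 on the minus strand (RefSeq, GRCm38.p6), upstream of both the RefSeq and the GENCODE start, and capitals mark 2 overlapping matches.
Tlr2: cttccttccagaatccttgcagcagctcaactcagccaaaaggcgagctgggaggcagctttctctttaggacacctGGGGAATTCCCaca
The motif was searched on both strands, and 45.8% of the 32851 RefSeq promoter windows of 250 bases held a match, so a match is common and describes the letters only.

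Tlr4 (ENSMUSG00000039005.13; chromosome 4, 66827584 to 66930284, plus strand) encodes the receptor for bacterial lipopolysaccharide. It had WT values of 11.67, 12 and 11.57 against DM values of 12.07, 12.26 and 12.23. WT replicate 2 came within 0.068 of the lowest DM library, and the groups did not overlap. The mean went from 11.75 ± 0.227 (SD, n = 3) to 12.19 ± 0.103, a change of 0.44 (SE 0.111, limma adjusted p 0.0273). Leaving out WT replicate 1 ended the call (0.4, adjusted p 0.102), as did leaving out WT replicate 3 (0.35, 0.0621), DM replicate 2 (0.4, 0.101) or DM replicate 3 (0.42, 0.0959).

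Cd14 (ENSMUSG00000051439.7; chromosome 18, 36725067 to 36726798, minus strand) encodes the surface protein that hands lipopolysaccharide to the complex of TLR4 and MD-2. It had WT values of 10.28, 10.6 and 10.42 against DM values of 10.93, 10.9 and 11.08. All DM libraries lay at least 0.3 above the highest WT library. The change was 0.54 (SE 0.0914, limma adjusted p 0.0067), from 10.43 ± 0.163 (SD, n = 3) to 10.97 ± 0.0944.

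Tlr6 and Tlr1 encode the alternative partners of TLR2, and lie next to each other on chromosome 5 with 18467 bases between them. Tlr6 (ENSMUSG00000051498.7; 64952031 to 64960097, minus strand) had WT values of 8.33, 8.55 and 8.29 against DM values of 8.74, 8.91 and 8.71. Its groups did not overlap, and its mean went from 8.39 ± 0.14 (SD, n = 3) to 8.79 ± 0.106, a change of 0.4 (SE 0.0893, limma adjusted p 0.0172). The call of Tlr6 was lost without WT replicate 1 (0.37, adjusted p 0.0708) and without DM replicate 2 (0.34, 0.0716).

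Tlr1 (ENSMUSG00000044827.10; 64924679 to 64933563, minus strand) had WT values of 7.74, 7.79 and 7.81 against DM values of 7.89, 7.74 and 8.03. DM replicate 2 lay inside the range of WT, so the groups overlapped. The change of Tlr1 was 0.11 (limma 95% interval -0.08 to 0.29, adjusted p 0.415), from 7.78 ± 0.0405 (SD, n = 3) to 7.89 ± 0.143. Within a library, the difference between Tlr6 and Tlr1 was 0.61 ± 0.14 in WT and 0.9 ± 0.246 in DM (exact permutation, two-sided p 0.2). The smallest p that 3 against 3 allows is 0.1, so this test could not pass 0.05 and decides nothing here. For Tlr2 against Tlr1 the same difference went from 4.66 ± 0.135 to 5.13 ± 0.211 (exact permutation p 0.1). Of the 50-base stretches of the annotated transcripts, 15.4% of those of Tlr1 and 12.3% of those of Tlr6 also occur in another gene, for the most part in each other, so reads could be split between this pair. Their values are uncertain to that extent.

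The endosomal receptors held the largest changes of the 10 genes. Tlr7 (ENSMUSG00000044583.13; chromosome X, 167304929 to 167330558, minus strand) encodes a receptor for single-stranded RNA. It had WT values of 10.04, 10.46 and 9.93 against DM values of 10.77, 11.16 and 10.87. Replicate 2 was the highest library of each group, and the groups did not overlap. The mean went from 10.14 ± 0.281 (SD, n = 3) to 10.93 ± 0.203, a change of 0.79 (SE 0.141, limma adjusted p 0.00774), or 1.73-fold on the linear scale.

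Tlr8 (ENSMUSG00000040522.5; chromosome X, 167242696 to 167264329, minus strand), a relative of Tlr7, is its neighbour at a distance of 40599 bases. It had WT values of 9.52, 9.98 and 9.46 against DM values of 10.1, 10.55 and 10.27. The highest WT library, replicate 2, was 0.119 under the lowest DM library. The change was 0.65 (SE 0.147, limma adjusted p 0.0176), from 9.66 ± 0.286 (SD, n = 3) to 10.31 ± 0.228. Leaving out WT replicate 1 ended the call (0.59, adjusted p 0.0663), as did leaving out DM replicate 2 (0.53, 0.0647) or DM replicate 3 (0.67, 0.0527).

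Tlr13 (ENSMUSG00000033777.4; chromosome X, 106143204 to 106160493, plus strand) encodes a receptor for bacterial ribosomal RNA, which humans lack. For Tlr13 the WT values were 11.76, 12.13 and 11.79 and the DM values were 12.44, 12.77 and 12.54. The groups did not overlap, and WT replicate 2 was again the highest of its group. The mean went from 11.89 ± 0.204 (SD, n = 3) to 12.58 ± 0.17, a change of 0.69 (SE 0.116, limma adjusted p 0.00649), or 1.61-fold.

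Tlr3 (ENSMUSG00000031639.12; chromosome 8, 45395665 to 45411080, minus strand) encodes the receptor for double-stranded RNA that signals through TRIF alone. For Tlr3 the WT values were 7.3, 7.45 and 6.96 and the DM values were 7.7, 8.02 and 7.75, without overlap. The change was 0.59 (SE 0.128, limma adjusted p 0.0155), from 7.24 ± 0.248 (SD, n = 3) to 7.82 ± 0.175. Without DM replicate 2 it was 0.49 and past the threshold no longer (adjusted p 0.0563). The antisense gene Gm45542 overlaps Tlr3 on the opposite strand and had a mean of 0.53 over the 6 libraries, and the use of strand in counting is not given in the sources used here.

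Tlr9 (ENSMUSG00000045322.10; chromosome 9, 106222598 to 106226883, plus strand) encodes the receptor for unmethylated CpG DNA. For Tlr9 the WT values were 6.08, 6.2 and 6.28 and the DM values were 6.07, 6.08 and 6.19, and the groups overlapped. The mean went from 6.19 ± 0.0975 (SD, n = 3) to 6.11 ± 0.0675, a change of -0.07 (limma 95% interval -0.24 to 0.09, adjusted p 0.536). The interval lies below the change of every member that rose. The difference between Tlr7 and Tlr9 within a library was 3.96 ± 0.303 in WT and 4.82 ± 0.227 in DM (exact permutation p 0.1, 0.15 after adjustment over the 3 pairs compared, the same for Tlr2 against Tlr1, and 0.2 for Tlr6 against Tlr1). Each of the 3 pairs sets a gene that was called against a gene that was not, so its direction follows from the changes above. As the test could not pass 0.05, no conclusion is drawn from these pairs.

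Upstream sequences of 3 endosomal receptors are shown because they hold the core motif of PU.1, a factor of myeloid cells, in genes that rose as well as in the one that did not. The motif searched was GAGGAA on both strands, which overlaps neither of the other motifs searched in these stretches, and 23.3% of all 250-base windows held it. Capitals mark the match, and all stretches are upstream of the RefSeq and GENCODE starts (RefSeq, GRCm38.p6). Tlr13 rose and is shown for chrX:106143025-106143203 on the plus strand, Tlr8 rose and is shown for chrX:167264330-167264579 on the minus strand, and Tlr9 is shown for chr9:106222348-106222597 on the plus strand.
Tlr13: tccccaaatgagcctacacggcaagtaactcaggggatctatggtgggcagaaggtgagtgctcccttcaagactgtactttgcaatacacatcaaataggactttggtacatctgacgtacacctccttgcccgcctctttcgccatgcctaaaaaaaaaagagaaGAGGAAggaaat
Tlr8: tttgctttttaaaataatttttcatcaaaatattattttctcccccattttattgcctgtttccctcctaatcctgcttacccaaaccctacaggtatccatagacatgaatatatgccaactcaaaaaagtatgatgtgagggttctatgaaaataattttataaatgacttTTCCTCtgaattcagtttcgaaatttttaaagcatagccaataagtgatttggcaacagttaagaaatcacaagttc
Tlr9: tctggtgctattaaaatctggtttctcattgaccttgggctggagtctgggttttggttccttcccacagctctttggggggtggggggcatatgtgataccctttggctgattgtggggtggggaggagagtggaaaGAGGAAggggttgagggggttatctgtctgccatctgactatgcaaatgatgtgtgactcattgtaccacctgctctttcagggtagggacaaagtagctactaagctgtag
Promoter windows were searched for 7 of the 10 members, and Tlr4, Tlr7 and Cd14 were left out, so their motifs are unknown here. Of the 7 searched, 4 had this core within 250 bases of a RefSeq start (Tlr1, Tlr8, Tlr9 and Tlr13). The NF-kB motif was held by 3 (Tlr2, Tlr3 and Tlr6), and the IRF motif by 1, Tlr6. The IRF motif was searched as GAAA and GAAA with any 2 bases between them, and 2.98% of all windows held it. The cores thus lay upstream of Tlr8 and Tlr13, which rose, and of Tlr1 and Tlr9, which did not pass the test. These are matches of letters in the reference strain, and no binding was measured.

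**Figure D2:**
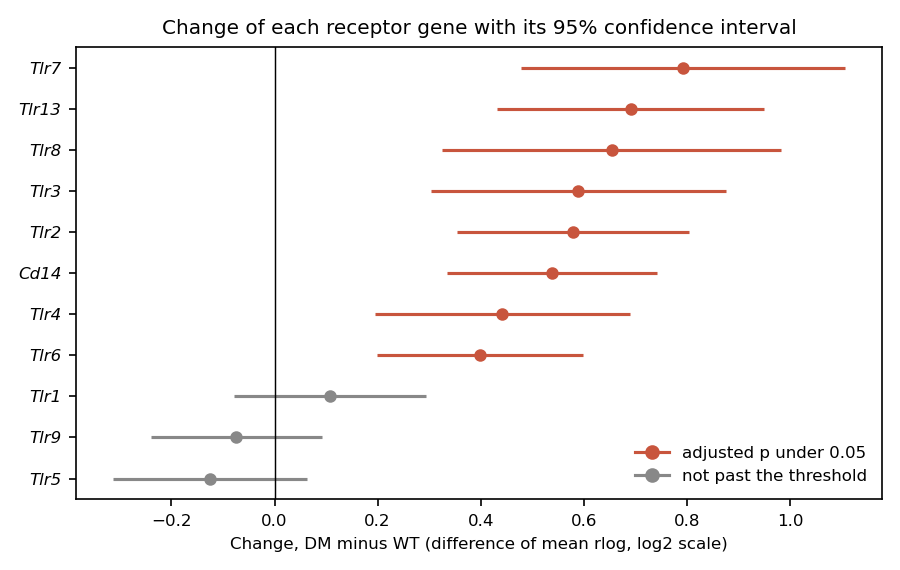
The change from WT to DM (x axis, difference of mean rlog on the log2 scale) of the 10 genes and of Tlr5, with 95% confidence intervals from limma as bars. The intervals of 8 genes (red) lie above 0, and those of Tlr1, Tlr9 and Tlr5 (grey) include 0.

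Levels differed more between the genes than between the groups. Per length, as the rlog value minus the log2 of exon length in kb, Tlr2 had the highest level in WT at 10.85 ± 0.159 (SD, n = 3), followed by Tlr13 at 9.79 ± 0.204, Cd14 at 9.64 ± 0.163 and Tlr4 at 9.27 ± 0.227. Then came Tlr7 at 8.11 ± 0.281, Tlr8 at 7.81 ± 0.286, Tlr6 at 6.49 ± 0.14 and Tlr1 at 6.04 ± 0.0405. Tlr3 at 4.86 ± 0.248 and Tlr9 at 4.39 ± 0.0975 were the lowest. The neighbours Tlr13 and Cd14, Cd14 and Tlr4, and Tlr7 and Tlr8 overlapped between WT libraries, and the other neighbours in this order did not. In DM the order of the 10 genes was the same and no neighbours overlapped, with Tlr2 at 11.43 ± 0.139 and Tlr9 at 4.31 ± 0.0675.

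**Figure D3:**
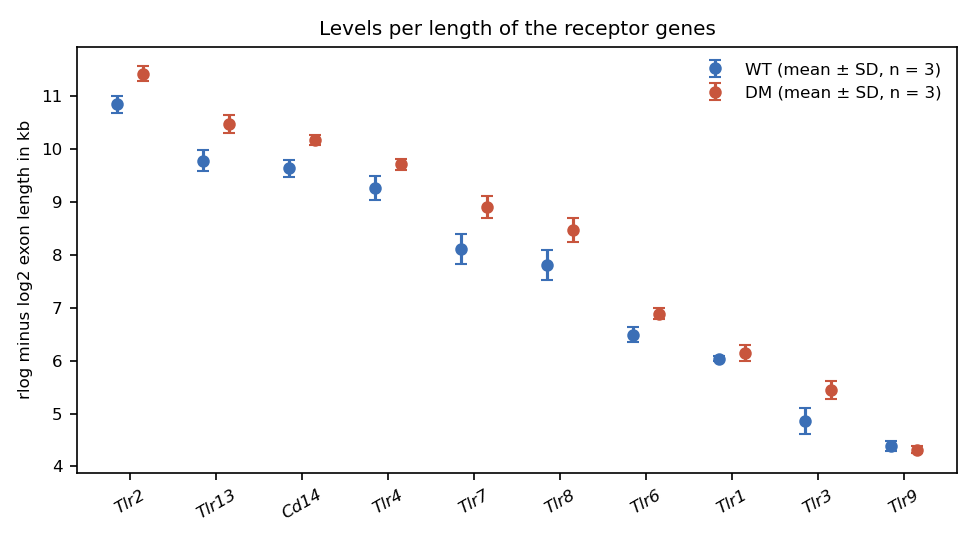
Levels per length (y axis, rlog value minus log2 exon length in kb) of the 10 genes in the order of their WT means, as mean ± SD of 3 WT (blue) and 3 DM (red) libraries. Tlr2 is highest and Tlr9 lowest in both groups.

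Most of the genes that rose varied together between libraries of one group, Cd14 less than the others. WT replicate 2 was the highest WT library for all 8, and DM replicate 2 the highest DM library for 7 of them, with Cd14 highest in DM replicate 3. Over the 6 libraries the 28 pairs among these 8 genes had Pearson correlations from 0.821 to 0.995, with a median of 0.961. After each group's mean was taken away, the correlations ran from 0.125 (Tlr3 with Cd14) to 0.994 (Tlr7 with Tlr8), with a median of 0.85. The pairs of Cd14 among the 8 genes then ran from 0.125 to 0.735 (with Tlr2). With Tlr1 and Tlr9, which were not called, Cd14 correlated at 0.605 and 0.66. These are descriptions, since the genes share libraries and scaling. The 8 genes were taken because their groups differ in the same direction, which by itself raises correlations over the 6 libraries. Pairs with Tlr1 or Tlr9 were left out when these ranges and medians were taken. Pairs of genes outside the 10 were not compared in this way. The tested genes whose profile was most like the mean profile of the 10 were Pnpla7, Rbm47, Rassf4, Arhgap12 and Mpeg1, each with a Pearson correlation that rounds to 0.999 over the 6 libraries. Their changes were 0.29, 0.66, 0.53, 0.46 and 0.84 in that order.

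The 3 other mouse Toll-like receptors were at low values. Tlr5, the flagellin receptor, had WT values of 4.98, 4.86 and 5.16 against DM values of 4.78, 4.88 and 4.97, a change of -0.13 (limma 95% interval -0.31 to 0.06). Tlr11 and Tlr12, which bind profilin of protozoa, had means under 3 and were not tested. Tlr11 read between 0.97 and 1.01 and Tlr12 between 2.92 and 3.05, with overlapping groups.

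Around the receptors, 85 pathway genes were listed in 6 groups by role, 80 were tested, and 33 were higher and 4 lower in DM. Over all tested genes 9.2% were called higher and 4.71% lower, and the counts of each list below stand beside these shares. Of these 37 calls, 13 were kept in all 13 alternatives, and each of the others was lost in at least 1 of them. The alternatives include fits that left out 1 library, into which fewer libraries enter, and some calls were lost there without a smaller change. The accessory proteins and chaperones had the most calls, 12 higher and 1 lower of 17 tested, with a median change of 0.52 against 0.01 over all genes. Cd36, a scavenger receptor that assists TLR2 with TLR6, changed by 1.13 (limma adjusted p 0.016). Its call was lost without WT replicate 1 (1.11, adjusted p 0.0505) and without DM replicate 2 (1, 0.0605). The endosomal proteases that cut nucleic acid-sensing receptors rose, with changes of 0.96 for Ctss (adjusted p 0.0115), 0.8 for Ctsb (0.0108) and 0.75 for Lgmn (0.00626). Cd180, which encodes a surface homologue of TLR4, rose by 0.77 (adjusted p 0.00484). Lbp, whose product carries lipopolysaccharide to CD14, was the gene of this list that fell: it had WT values of 9.34, 9.59 and 9.3 against DM values of 7.77, 8.17 and 8.1, a change of -1.4 (SE 0.115, adjusted p 0.000173). These 5 genes kept their calls in all 13 alternatives. Unc93b1, the chaperone that brings endosomal receptors to their place, changed by 0.23 and did not pass. Ly86, the partner of CD180, had a mean under 3 and was not tested. Without DM replicate 2 the list had 6 genes called higher and without WT replicate 1 it had 7.

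Of the adaptors and proximal kinases 6 of 23 were higher and none lower, with a median of 0.12 (limma). At an unadjusted p under 0.05 in limma, 7 of the 23 were higher and 0 lower, and 28.9% of all tested genes passed that threshold in either direction. This list is near that share. Myd88, the main adaptor, had WT values of 10.96, 11.03 and 11.05 against DM values of 11.06, 11.18 and 11.12, a change of 0.11 (limma 95% interval -0.04 to 0.25). Ticam1, which encodes TRIF, changed by 0.14 and Tirap, the bridge from TLR2 and TLR4 to MyD88, by 0.06, and neither passed the test. Pik3ap1, an adaptor that links the receptors to PI3 kinase, rose by 0.52 (adjusted p 0.00984) and Irak2, a kinase of the MyD88 complex, by 0.45 (0.00844), both in all 13 alternatives. Ticam2, the bridge from TLR4 to TRIF, changed by 0.47 (adjusted p 0.021), and leaving out WT replicate 1 (0.43, 0.0779), WT replicate 3 (0.38, 0.0518), DM replicate 2 (0.43, 0.0767) or DM replicate 3 (0.47, 0.0646) ended its call. Peli3 is a ubiquitin ligase of IRAK proteins and Ikbkg the regulatory subunit of IKK. Without WT replicate 1 the changes of Peli3 (0.36, adjusted p 0.0192) and Ikbkg (0.35, 0.0157) were 0.3 (0.082) and 0.33 (0.0694), and without DM replicate 2 they were 0.32 (0.0747) and 0.32 (0.074). Tbk1, the kinase that activates IRF3 (0.33, adjusted p 0.0282) lost its call without the filter on the mean (0.0616), and without any 1 of WT replicates 1 and 3 or DM replicates 1, 2 and 3, where its change ran from 0.25 to 0.34. Without WT replicate 1 the list had 2 calls and without DM replicate 2 it had 3.

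Among 13 negative regulators 3 were higher and 1 lower, and none kept its call in all alternatives. Tnfaip3, the deubiquitinase A20 that ends NF-kB signalling, changed by 0.39 (limma adjusted p 0.0101), and by 0.35 without WT replicate 1 (0.0508). Lyn, a Src family kinase, changed by 0.34 (adjusted p 0.0196), with 0.3 without WT replicate 1 (0.0982) or DM replicate 2 (0.0934) and 0.35 without DM replicate 3 (0.0596). Otulin (0.25, adjusted p 0.032) and Sigirr, an inhibitory member of the receptor superfamily (-0.31, 0.0232), each lost the call without any 1 of 5 libraries, and Otulin also without the filter and after quantile normalization. Their changes without a library ran from 0.22 to 0.25 and from -0.34 to -0.26. No gene of the list was called higher without WT replicate 1, and 1 was without DM replicate 2 or 3.

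Among 10 transcription factors of the pathway 5 were called higher and 0 lower (limma; 7 and 0 at an unadjusted p under 0.05). The largest changes were in Irf8 (0.56, limma adjusted p 0.016) and Irf5 (0.48, 0.012), factors of mononuclear phagocytes that act downstream of the receptors. Without WT replicate 1 none of the 5 passed, with Irf5 at 0.42 (adjusted p 0.0517) and Irf8 at 0.5 (0.063), and Irf8 was also lost without DM replicate 2 (0.51, 0.0632) and DM replicate 3 (0.54, 0.0609). The NF-kB genes Nfkb2 (0.36, adjusted p 0.0194), Relb (0.3, 0.0371) and Rel (0.25, 0.037) were not called after quantile normalization (0.26, 0.23 and 0.16), nor without WT replicate 1 (0.27, 0.22 and 0.22), DM replicate 2 (0.37, 0.28 and 0.27) or DM replicate 3 (0.36, 0.29 and 0.26). Irf7, which mediates interferon output, had a change of 0.07 and did not pass. Leaving out DM replicate 1 left 3 calls in the list, and leaving out DM replicate 2 or 3 left 1.

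Of 16 tested target genes that the receptors induce, 7 were higher and 2 lower, with a median of 0.28. Tnf had WT values of 11.34, 11.68 and 11.58 against DM values of 12.1, 12.18 and 12.17, a change of 0.62 (SE 0.0903, limma adjusted p 0.00385). Il1a rose by 0.74 (adjusted p 0.0108) and the chemokine gene Ccl3 by 0.54 (0.00828). Nos2, the inducible nitric oxide synthase, fell from 8.5, 8.83 and 8.5 in WT to 7.48, 7.57 and 8.01 in DM, a change of -0.93 (adjusted p 0.00442). These 4 genes kept their calls in all 13 alternatives. Acod1, the itaconate enzyme, changed by 0.63 (adjusted p 0.0203), and its call ended on leaving out WT replicate 1 (0.49, 0.0674), DM replicate 1 (0.52, 0.0569) or DM replicate 3 (0.61, 0.071). Cxcl2 changed by 0.54 (adjusted p 0.0186), with 0.49 without WT replicate 1 (0.0705) and 0.44 after quantile normalization (0.0634). Il1b (0.37) and Il6 (-0.1) did not pass, and Il10 and Ifnb1 had means under 3. The number higher was 3 without WT replicate 1 and 4 without DM replicate 3, and 1 gene was lower without WT replicate 1 or any 1 of the DM libraries.

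**Figure D4:**
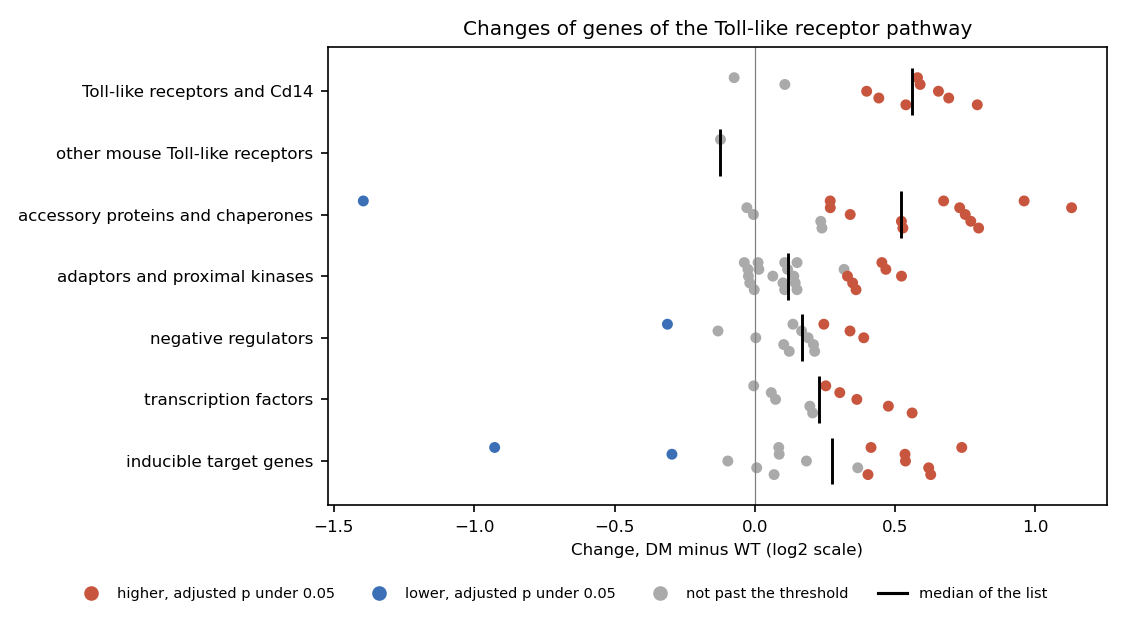
Changes from WT to DM (x axis, log2 scale) of the tested genes of each list (y axis), coloured by the call, with black lines at list medians. The receptors and the accessory proteins lie farthest to the right, with medians of 0.56 and 0.52.

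Markers of myeloid cells moved between the same groups. The shares called over all tested genes, 9.2% higher and 4.71% lower, stand beside the counts of each marker list. Of 18 tested monocyte and macrophage markers, 10 were higher and 3 lower in DM, and the log2 of their summed linear level lay between 18.27 and 18.95 in WT and between 19.24 and 19.6 in DM. That sum is weighted to the most abundant markers, such as Lyz2, and the mean rlog value over the 18 markers overlapped between the groups (10.31 to 10.62 in WT, 10.56 to 10.74 in DM). Lyz2, the lysozyme gene, changed by 0.86 (limma adjusted p 0.0176), and its call ended on leaving out WT replicate 1 (0.81, 0.0706), WT replicate 3 (0.71, 0.0984) or DM replicate 2 (0.73, 0.0655). Csf1r, the receptor of the macrophage growth factor, had WT values of 12.05, 12.46 and 12.1 against DM values of 12.85, 13.04 and 12.93, and WT replicate 2 was its highest WT library too. The 3 markers with the largest called changes were F13a1 (-1.49, limma adjusted p 0.000134) and Ly6c2 (-1.13, 0.00361), known from monocytes, and Marco, a macrophage scavenger receptor (0.99, 0.0342). Marco lost its call with a robust prior (0.99, adjusted p 0.0775) and without WT replicate 1 (1.01, 0.0818), WT replicate 3 (0.67, 0.0531), DM replicate 1 (0.92, 0.0835) or DM replicate 2 (0.87, 0.114). Among the markers higher in DM, Gpnmb (0.96, limma adjusted p 0.012), Cd68 (0.94, 0.00777) and Adgre1 (0.63, 0.00423) kept their calls in all 13 alternatives. The 5 tested markers not called include C1qb, C1qc and Cd163, with means of 3.04, 3.6 and 3.62. The 2 markers not tested were C1qa and Vsig4, with means of 2.51 and 0.65, and no marker of the list was at 0. The list had 5 genes called higher without DM replicate 2 and 6 without WT replicate 1. How far these cells account for the receptor values was not tested.

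Of 18 neutrophil markers, 14 were lower in DM and none higher (limma; 15 and 1 at an unadjusted p under 0.05), with Mpo (-4.23, limma adjusted p 0.000444), Elane (-3.96, 0.000118) and Prtn3 (-3.37, 0.000118) at the front. The log2 of their summed linear level was 18.82 to 19.2 in WT and 17.88 to 18.38 in DM. Of 9 tested dendritic cell markers 4 were higher and 1 lower, led by Itgax (0.98, adjusted p 0.0108), Cd74 (0.81, 0.00691) and H2-Ab1 (0.79, 0.00684). The other higher gene, Clec9a (0.23, adjusted p 0.0499), lost its call in 8 of 13 alternatives. Flt3 was the lower one (-0.3, adjusted p 0.0494) and lost its call in 10 of 12. Zbtb46 changed by -0.07 and was not called. Xcr1, Cd209a, Siglech and Ccr9, which mark dendritic cell subsets, had means under 3. Summed, the list lay between 13.34 and 13.9 in WT and between 14.23 and 14.54 in DM. That sum is weighted to the most abundant markers, such as Cd74 and Itgax. The mean rlog value over the 9 tested markers was 8.18 to 8.33 in WT and 8.51 to 8.61 in DM. Of 5 tested B cell markers Cd22 was higher (0.75, 0.00659) and Cd79b lower (-0.27, 0.0166), and Ms4a1 had a mean under 3. The call of Cd79b was lost without DM replicate 1 (-0.27, adjusted p 0.0516) or DM replicate 2 (-0.26, 0.0638). The summed B cell list lay between 8.58 and 8.88 in WT and between 9.16 and 9.48 in DM, while its mean rlog value overlapped (4.77 to 4.86 and 4.8 to 4.88). That sum is mostly Cd22, which read 8.11 to 8.57 in WT and 8.92 to 9.29 in DM. It was the only 1 of the 5 tested markers with a positive change, and the list median was -0.1. Mast cell and basophil markers had 1 of 11 called lower and 0 higher (limma; 3 and 0 at an unadjusted p under 0.05), Hdc (-0.62, 0.0457), which lost its call in 8 of 13 alternatives, where its change ran from -0.67 to -0.43. Of 8 stem and progenitor markers Procr (0.73, 0.00705) and Mecom (0.52, 0.0189) were higher and Myb lower (-0.65, 0.0127). Without DM replicate 2 the change of Mecom was 0.53 (adjusted p 0.0517) and that of Myb -0.57 (0.0529), and without DM replicate 3 that of Myb was -0.6 (0.0527), past the threshold no longer. The part of each of these cell types in the receptor values was not tested.

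**Figure D5:**
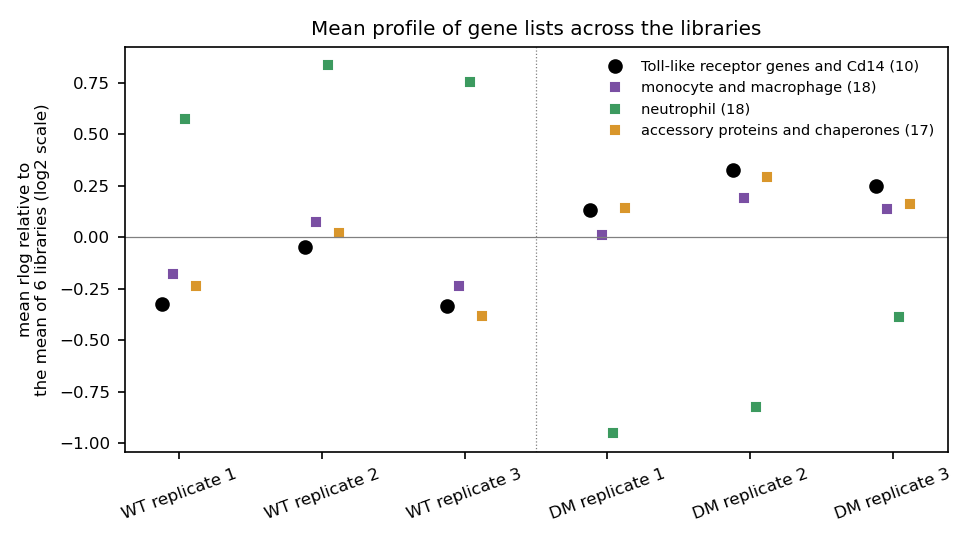
Mean rlog value of gene lists in each library (x axis) relative to the mean over the 6 libraries (y axis, log2 scale), for the 10 receptor genes (black) and the tested genes of 3 lists, with the number of genes in brackets. The receptor genes lie above 0 in the DM libraries and below 0 in the WT libraries, nearest to 0 in WT replicate 2, while the neutrophil markers lie the other way.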

How the data were processed

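Total RNA (AllPrep kit) went into libraries depleted of abundant transcripts, per the labels' protocols. The submitters' processing notes list cutadapt 2.6, STAR 2.7.3, DESeq2 1.30.0 and the build mm10, with no role or order. The authors deposited log2-scale rlog values, as read from the table's name and its values (-1.97 to 21.88, not whole). Depth is unknown, so no counting interval was computed. The 142699 lines, which repeat genes with identical values, were reduced to 55487 genes, of which 99.5% matched GENCODE M21 by identifier without version. No pair of libraries was identical. The test was limma 3.58.1 (R 4.3.3; eBayes with a mean-variance trend), DM minus WT without covariates, over 18766 genes with a mean of at least 3. P-values were adjusted by Benjamini-Hochberg, with a threshold of 0.05, and the test was tested on simulated data. There the noise was drawn independently for each gene and library, so deviations shared between genes were not part of it. Means ± SD are over 3 libraries, all in batch 1. Pairs of genes were compared by exact permutation (scipy 1.17.1). Plots used matplotlib 3.10.9.

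The members, lists and tests were chosen with earlier results of these data known. Named genes were all members, up to 6 called genes of each pathway list and up to 3 of each cell type list with the largest changes, and the 5 genes most like the members' mean profile. Other genes named were chosen after their values were seen. Alternatives were no filter, a mean of at least 5, no trend, a robust prior, quantile normalization, centring on the median, a replicate block, and each library left out. No count test was run.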

Additional observations from a re-analysis of the deposited data

How the results depend on the processing

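The 10 members kept their direction in all 13 alternatives, and the 7 alternatives that used all 6 libraries each called the same number of members, 8 higher and 0 lower. Leaving out 1 library gave 4 to 8 members called higher. The changes then ran from 0.35 to 0.57 for Tlr4 (4 calls lost), 0.34 to 0.48 for Tlr6 (2), 0.45 to 0.69 for Tlr3 (1) and 0.53 to 0.82 for Tlr8 (3), and fewer libraries enter those fits. Tlr2, Tlr7, Tlr13 and Cd14 were called in all 13. The number of genes called was 2611, and 1119 to 3474 with 1 library left out. Of these, 1727 were higher, against 598 to 2323 with 1 library left out, 1132 without the filter and 1362 after quantile normalization.

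The replicate numbers were not taken as pairs, though the values do not settle this. Deviations from group means correlated at 0.491, 0.116 and 0.0412 for numbers 1 to 3, and at -0.336 to 0.124 for unlike numbers. WT replicate 3 correlated better with DM replicate 2 (0.124) than with DM replicate 3. With the replicate block 3742 genes were called, 2632 of them higher, 8 members were still higher, and 1 neutrophil and 1 mast cell marker were called higher. The SE of each member was smaller with the block, at 0.0647 against 0.141 for Tlr7.

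For the lists, quantile normalization gave 2 accessory genes lower, 2 transcription factors higher and 1 target gene lower, and without the filter 3 transcription factors were higher. A mean of at least 5 gave 1 neutrophil marker higher, 0 B cell markers lower and 2 stem and progenitor markers lower. No dendritic cell marker was lower (0, against 1) without the filter, with a mean of at least 5, without the trend, with the robust prior, after quantile normalization or after centring. No mast cell marker was lower (0, against 1) without the filter, without the trend, with the robust prior or after centring. With 1 library left out, the genes called higher numbered 6 to 13 for accessory proteins, 2 to 6 for adaptors, 0 to 4 for negative regulators, 0 to 6 for transcription factors, 3 to 7 for targets, 5 to 10 for monocyte and macrophage, 0 to 1 for neutrophil and 1 to 2 for stem and progenitor markers. Those called lower numbered 0 to 1 for negative regulators, 1 to 2 for targets, 0 to 1 for dendritic cell, 0 to 2 for B cell, 0 to 3 for mast cell and 0 to 2 for stem and progenitor markers. Other causes were not tested. The median SD within groups was 0.0171 for genes with a mean under 3, where Tlr11 and Tlr12 lie, 0.0684 from 3 to 6, where Tlr5 lies, and 0.09 to 0.0965 above 6, where all 10 members lie.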
